A study of Mus musculus with 5 samples.

Results

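Cdkn1a, Ccnd1 and Myc are cell cycle genes, and their loci were read here as every peak of 5 chromatin immunoprecipitation sequencing (ChIP-seq) lists that overlapped 3 fixed windows of the mouse build mm9. The windows were chr17:29190000-29280000 for Cdkn1a, chr7:152070000-152180000 for Ccnd1 and chr15:61750000-61900000 for Myc. They held 61 of the 258727 peaks in the 5 lists, 26 at Cdkn1a, 18 at Ccnd1 and 17 at Myc. The approximate gene positions came with the windows, at 29.228 Mb for Cdkn1a, from 152.116 to 152.126 Mb for Ccnd1 and at 61.817 Mb for Myc. No mm9 gene annotation was used, so peaks are placed by their distance from these positions and not by exon, intron or promoter.

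The tissue was glioma that a PDGFB virus induced in mouse brain, taken 25 days after virus injection. Of the alleles reported here, control tumours carried floxed P53 (P53f/f), and Olig2cKO tumours carried floxed Olig2 alleles (Olig2f/f) as well. Both were on a mixed C57Bl/6;129Sv;CD-1 background. The floxed P53 alleles are thus common to every library, and what drives recombination, or how many animals went into a library, is not stated in the labels. ChIP was done for Olig2 in control tumours and for 2 histone marks, H3K27ac and H3K4me3, in both genotypes, with 1 library per group. Olig2 was mapped in control tumours, so its loss in the Olig2cKO libraries was not checked.

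The 3 genes stand at the passage from the G1 phase into DNA synthesis. Cdkn1a encodes p21, an inhibitor of cyclin-dependent kinases and a classic target of p53. Ccnd1 encodes cyclin D1, the partner of the kinases that phosphorylate the retinoblastoma protein, and Myc encodes a transcription factor that drives growth and proliferation. Olig2, a basic helix-loop-helix factor of the oligodendrocyte lineage, binds the short E-box motif and is known for opposing p21 in neural progenitors and glioma. Acetylated lysine 27 of histone H3 (H3K27ac) is found at promoters and enhancers in use, and trimethylated lysine 4 (H3K4me3) chiefly at promoters.

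A list gives each peak a start, an end and a score from the authors' peak caller. Scores are not scaled between libraries. They are therefore given with their percentile, the share of peaks in the same list that score at or below the peak. The depth of each library is unknown, and every difference between genotypes is between 2 libraries with no replicate check and no test. A peak that is not listed does not show that the factor or mark was absent. Whether the labelled tissue carries its defining markers was not checked here.

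The 12 Olig2 peaks lay 4 to a locus, in windows of 90, 110 and 150 kb for Cdkn1a, Ccnd1 and Myc, and in windows 50 kb wider on each side there were 9, 5 and 7. Control H3K27ac was listed in 5 peaks at Cdkn1a, 3 at Ccnd1 and 4 at Myc, and Olig2cKO H3K27ac in 7, 3 and 5. Control H3K4me3 was listed in 7, 4 and 2 peaks, and Olig2cKO H3K4me3 in 3, 4 and 2. Peaks that overlapped each other in any of the 5 lists were merged into regions, which gave 21 regions at the 3 loci. Of these, 3 were in all 5 lists, 3 held an Olig2 peak alone, and 12 of the 18 with a histone peak carried the same marks in both genotypes (66.7%, 95% exact binomial interval 41.0 to 86.7). Over the whole series, 54.3% of 88952 such regions carried the same marks in both genotypes, a share inside that interval. By locus the count was 3 of 6 at Cdkn1a, 5 of 5 at Ccnd1 and 4 of 7 at Myc. Such intervals hold counting error alone, and peaks of 1 locus depend on each other.

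**Figure D1:**
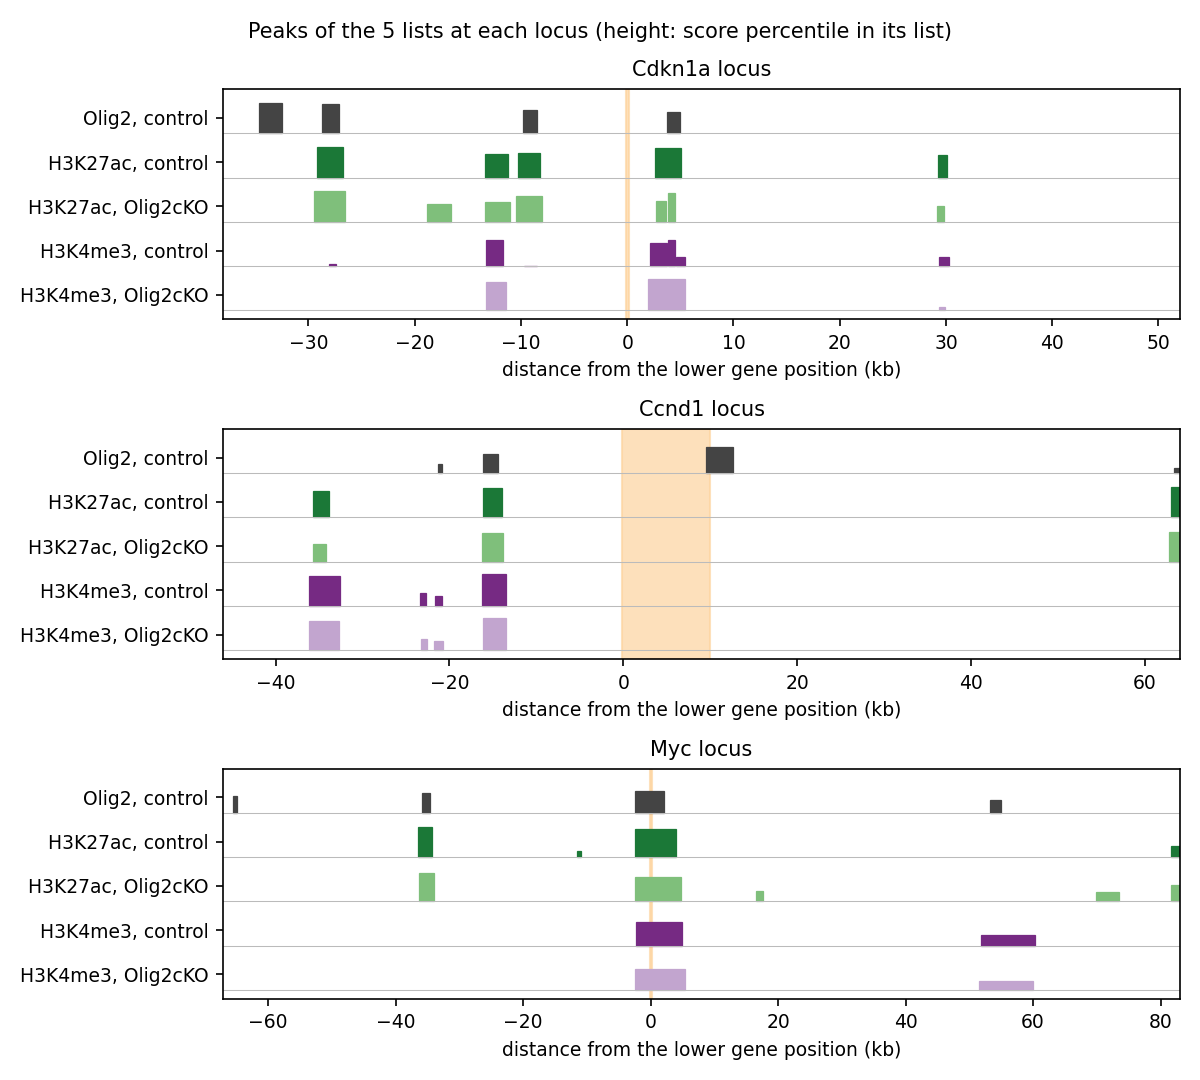
Peaks of the 5 lists at each locus, by distance in kb from the gene position (for Ccnd1 from the lower of its positions, with the shaded band from 152.116 to 152.126 Mb), where box width is the peak's extent and box height its score percentile in its own list. The Ccnd1 band meets an Olig2 peak and no histone peak, while all 5 lists have a peak over the Myc position.

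At Cdkn1a the region nearest the gene position carried Olig2, H3K27ac and H3K4me3, and both marks were listed there in both genotypes. The Olig2 peak, chr17:29231764-29232946, was 1183 bp wide, lay 3.764 kb from the position and had a score of 118.71, the 63.26 percentile of the Olig2 list. H3K4me3 was listed as 3 control peaks, with scores of 786.21, 1154.57 and 137.37. They lay at chr17:29230155-29231728, chr17:29231852-29232514 and chr17:29232607-29233424. The pieces were separated by 123 and 92 bp and covered 3055 bp. In Olig2cKO tumours the same stretch was 1 peak of 3513 bp, chr17:29229942-29233454, with a score of 2065.89. That peak stood at the 93.23 percentile of its list and was the highest H3K4me3 peak of the locus in that genotype, against percentiles of 69.36, 78.28 and 26.66 for the control pieces. Scores of a whole peak and of pieces are not like for like, and how splitting moves a score was not tested.

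H3K27ac in that region was arranged the other way round. Control tumours had 1 peak of 2419 bp, chr17:29230649-29233067, with a score of 750.22 (90.01 percentile). Olig2cKO tumours had 2 peaks with 218 bp between them, chr17:29230686-29231630 with a score of 235.15 (62.52 percentile) and chr17:29231849-29232474 with a score of 521.85 (85.69 percentile). Together they covered 1571 bp. Here too the percentiles compare a whole peak with pieces. The extent listed near Cdkn1a was thus wider in Olig2cKO tumours for H3K4me3 and narrower for H3K27ac. With the gaps counted, the control H3K4me3 pieces spanned 3270 bp and the Olig2cKO H3K27ac peaks 1789 bp, so part of each difference is gaps. Over all one-to-one pairs of peaks, 76.7% were wider in Olig2cKO tumours for H3K4me3 and 57.0% for H3K27ac. This region is not such a pair for either mark, so these shares are no like-for-like measure of it.

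RefSeq gives 2 transcription starts for Cdkn1a on GRCm38.p6, at 29090979 and 29093769 of chromosome 17, both on the plus strand and 2790 bp apart. They are shown because Olig2 peaks lay near the gene, and because the tumours carry floxed P53 alleles. Of the 3 genes, Cdkn1a was matched in RefSeq's promoter table, and Ccnd1 and Myc were not. Positions were not carried between builds, so it was not resolved which start the mm9 peaks cover. The 250 bases before each start are chr17:29090729-29090978 and chr17:29093519-29093768. Capitals mark the full p53 site, E-boxes (CANNTG), GC boxes (GGGCGG) and TATAAG, each searched on both strands.
Cdkn1a start 1: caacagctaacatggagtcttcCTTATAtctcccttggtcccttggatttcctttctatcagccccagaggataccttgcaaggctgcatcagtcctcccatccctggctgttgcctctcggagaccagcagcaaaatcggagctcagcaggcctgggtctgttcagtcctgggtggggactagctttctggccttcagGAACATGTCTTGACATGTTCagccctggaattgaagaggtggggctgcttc
Cdkn1a start 2: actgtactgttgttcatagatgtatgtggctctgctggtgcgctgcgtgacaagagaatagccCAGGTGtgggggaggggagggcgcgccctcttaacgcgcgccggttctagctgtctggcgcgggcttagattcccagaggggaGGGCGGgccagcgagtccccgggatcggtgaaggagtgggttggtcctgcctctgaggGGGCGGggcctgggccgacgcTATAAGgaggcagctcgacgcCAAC

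The sequence before the first start held the letters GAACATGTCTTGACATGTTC from base -51 to base -32, counting the start as base 0. This 20-base stretch matches the full p53 site (a pair of half-sites with no spacer) with 1 mismatch. Such a match was present in 29 of the 32851 promoter windows of 300 bases (0.0883%). The same window had TATAAG on the reverse strand from base -228, and an E-box of the CAGCTG type just after the start, from base 37 to base 42, in acccaactacCAGCTGtggggtg. The window of the second start had no p53 match by this rule. It held the E-box CAGGTG from base -187, GGGCGG from base -104 and from base -46, TATAAG from base -25, and an E-box CAACTG that begins at base -4 and runs past the start. CANNTG was present in 72.3% of all windows, CAGCTG in 16.3%, GGGCGG in 35.7% and TATAAG in 7.43%. CAGCTG is a form of CANNTG, so these counts overlap. CATCTG, another E-box form, was in neither Cdkn1a window and in 17.2% of all windows. The observed over expected CpG ratio in the 250 bases was 0.11 before the first start and 0.771 before the second, the 16.3 and 78.7 percentiles of all promoters. The second start is thus the CpG-rich one. A match of letters is a description and does not show binding.

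Olig2 also lay farther from the Cdkn1a gene position. The highest Olig2 peak of the locus, chr17:29193377-29195492, had a score of 246.82 (89.8 percentile), and no histone list had a peak on it. The nearest histone peak was 3.054 kb away. Beside it, the Olig2 peak chr17:29199295-29200909 (score 228.05) lay on the strongest H3K27ac peaks of the locus. Those were chr17:29198848-29201217 in control tumours, with a score of 827.65 (91.79 percentile), and chr17:29198546-29201437 in Olig2cKO tumours, with a score of 743.95 (92.18 percentile). This distal acetylation kept its place in both lists, and was 2370 and 2892 bp wide.

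The Olig2 peak chr17:29218175-29219506, 8.494 kb from the gene position with a score of 139.7, lay on H3K27ac of similar rank in both genotypes. Its H3K27ac scores were 386.03 (74.56 percentile) in control and 368.95 (77.06 percentile) in Olig2cKO tumours. At both of these acetylated Olig2 sites a weak H3K4me3 peak was listed in control tumours alone. They were chr17:29199958-29200583 with a score of 59.59 and chr17:29218297-29219516 with a score of 52.59, close to the lowest score of the list, 50.0. In the lowest score decile of the control H3K4me3 list, 36.8% of peaks had no Olig2cKO partner.

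The remaining Cdkn1a regions carried no Olig2 peak. The highest control H3K4me3 peak of the locus was chr17:29214680-29216284, with a score of 1207.82 (79.38 percentile), and its Olig2cKO partner chr17:29214679-29216570 had 1397.42 (84.87 percentile). The H3K27ac peaks there ranked lower in Olig2cKO tumours, with scores of 333.21 (70.49 percentile) in control and 209.32 (58.25 percentile) in Olig2cKO tumours. A small region 29 kb above the position was listed for both marks in both genotypes. Its H3K27ac percentile was 68.12 in control and 46.19 in Olig2cKO tumours, and its H3K4me3 percentile was 26.82 and 8.502. One acetylated region, chr17:29209119-29211416, was listed in Olig2cKO tumours alone, 16.584 kb from the position, with a score of 190.07. In its score decile, 23.6% of Olig2cKO H3K27ac peaks had no control partner. In RefSeq's order on GRCm38.p6 the gene next below Cdkn1a is Trp53cor1, the lincRNA-p21 gene, and the next above is Rab44; no peak was assigned to them.

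At Ccnd1 an Olig2 peak lay over the end of the gene where it starts, and no histone peak was listed there in either genotype. Ccnd1 is transcribed toward lower coordinates, so the upper position, 152.126 Mb, is its start. The Olig2 peak, chr7:152125546-152128577, was 3032 bp wide, wider than or as wide as 99.66% of Olig2 peaks, and had a score of 170.11 (79.05 percentile). The nearest peak of any histone list was 23.003 kb away. No histone list had a peak over 76.3 kb around it, chr7:152102544-152178809, and this Olig2 peak was the 1 peak of its list inside that stretch. Over the genome, 5.78% of the 91220 stretches between merged histone peaks were as long, and the median was 10.5 kb. This share counts stretches and not bases. A given position falls more often in a long stretch, so the share does not measure how rare such a stretch is around a gene.

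Wide Olig2 peaks without a histone peak were few. Among all Olig2 peaks, 17.1% overlapped none of the 4 histone lists. The share was 17.5% for peaks under 2 kb wide and 2.73% (1.82 to 3.93) for the 1024 peaks 2 to 3 kb wide. Of the 143 Olig2 peaks of 3 kb or more, 10 (6.99%, 3.4 to 12.5) overlapped none. Of those 10, the Ccnd1 peak was the farthest from any histone peak. The 3 kb limit was set after the Ccnd1 peak had been seen, so this is a description. No listed histone peak was as wide as 10 kb: of 219526 histone peaks the widest had 9285 bp, and the widest in each list had 8977 to 9285 bp. Ccnd1 itself spans 9901 bp in RefSeq. Whether a broader marked region at Ccnd1 could have been listed at all was not tested, so the empty stretch does not show an unmarked gene.

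**Figure D2:**
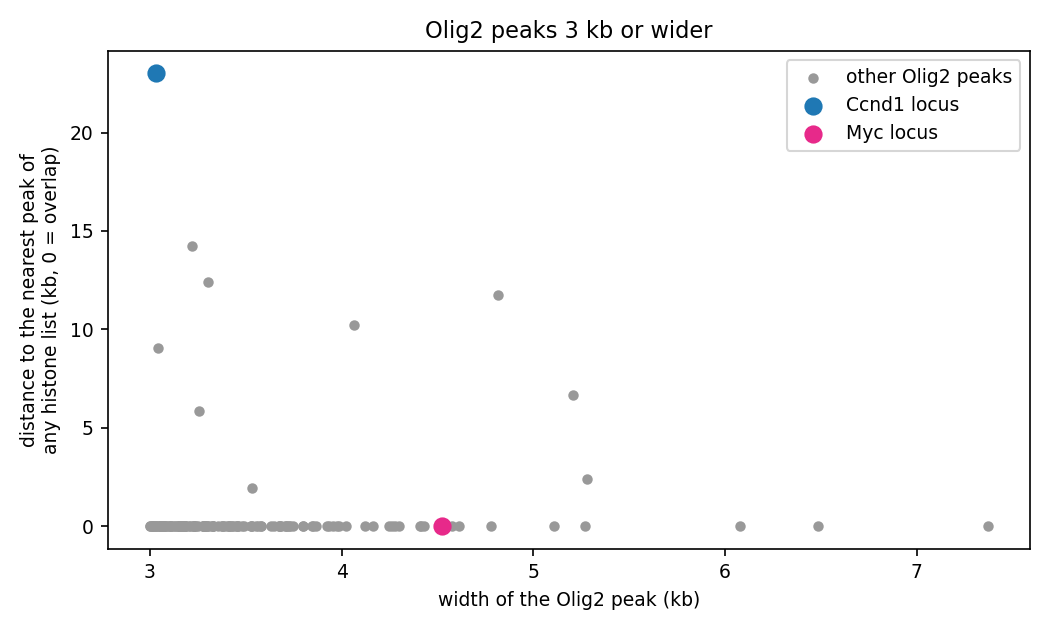
Olig2 peaks of 3 kb or more, with peak width in kb on the x axis and the distance in kb to the nearest peak of any of the 4 histone lists on the y axis, where 0 means overlap; each point is 1 peak. The Ccnd1 peak stands highest at 23.003 kb, and the Myc peak, 4523 bp wide, lies at 0.

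The histone peaks of the Ccnd1 locus lay at least 13.457 kb below the gene or at least 52.81 kb above it, and all had a partner in the other genotype. The nearest histone peaks were also the strongest H3K4me3 peaks of the locus, chr7:152099766-152102445 in control tumours with a score of 2457.23 (95.32 percentile) and chr7:152099835-152102543 in Olig2cKO tumours with 2524.19 (96.73 percentile). H3K27ac was listed there at chr7:152099899-152102065 (651.92, 87.16 percentile) and chr7:152099740-152102108 (536.91, 86.3 percentile). An Olig2 peak, chr7:152099880-152101566 with a score of 106.74, lay on all 4. In RefSeq's order on GRCm38.p6 the gene next below Ccnd1, with an end that overlaps it, is LTO1, and Fgf15 lies farther below.

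The strongest H3K27ac peaks of the Ccnd1 locus were chr7:152179021-152181138 in control tumours (767.83, 90.48 percentile) and chr7:152178810-152180874 in Olig2cKO tumours (616.3, 89.03 percentile). They crossed the upper edge of the window, carried a weak Olig2 peak, chr7:152179342-152180001 (58.72), and had no H3K4me3. Another acetylated region, at the lower end, carried no Olig2 peak and differed more between the lists. Its H3K27ac score was 494.62 (80.89 percentile) in control and 183.56 (53.43 percentile) in Olig2cKO tumours, while its H3K4me3 stayed high, with 2017.7 (91.34 percentile) and 1667.06 (88.78 percentile). A pair of small H3K4me3 regions without H3K27ac lay between them, with percentiles of 39.28 and 30.19 in control and 34.88 and 27.65 in Olig2cKO tumours. An Olig2 peak of 488 bp, chr7:152094662-152095149, lay on the second of these.

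At Myc, all 5 lists had a peak over the gene position, and each was among the widest of its list. The Olig2 peak, chr15:61814518-61819040, was 4523 bp wide (99.97 percentile by width) with a score of 127.79 (66.84 percentile by score). Control H3K4me3 covered chr15:61814716-61821952, 7237 bp, with a score of 888.8. Olig2cKO H3K4me3 covered chr15:61814517-61822389, 7873 bp, with 551.45. Control H3K27ac covered chr15:61814533-61821061, 6529 bp, with 607.09, and Olig2cKO H3K27ac chr15:61814530-61821759, 7230 bp, with 339.06. By width these 4 peaks stood at percentiles of 99.17 to 99.88, and Myc itself spans 5021 bp in RefSeq.

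Both marks over Myc were wider and lower in rank in Olig2cKO tumours. H3K4me3 was 636 bp wider and stood at the 63.3 percentile by score against 72.12 in control tumours. H3K27ac was 701 bp wider and stood at the 74.66 percentile against 85.64. Over all pairs of peaks with exactly 1 partner, the central 90% of differences in percentile (Olig2cKO minus control) ran from -30.74 to 43.32 for H3K27ac and from -15.06 to 28.08 for H3K4me3. The Myc differences, -10.99 and -8.82, lie inside these ranges. The H3K4me3 difference of the small Cdkn1a region 29 kb above the position, -18.31, lies below its range. All other such pairs at the loci lie inside, the lowest being the H3K27ac difference of -27.46 at the lower end of the Ccnd1 locus.

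A second wide H3K4me3 region of the Myc locus carried Olig2 but no H3K27ac in either genotype. It was 8504 bp wide in control tumours, chr15:61868810-61877313, and 8519 bp in Olig2cKO tumours, chr15:61868448-61876966. Peaks of 8 kb or more numbered 28 of the 44676 in the control list and 55 of the 48885 in the Olig2cKO list. Scores were 163.77 and 131.34, where the medians of these widest peaks were 134.5 and 165.7. The Olig2 peak, chr15:61870219-61871900, had a score of 78.74 (38.89 percentile). The next gene above Myc in RefSeq's order on GRCm38.p6 is Pvt1, a long noncoding RNA gene; no peak was assigned to it.

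Acetylation without H3K4me3 was listed at 5 further Myc regions. The strongest was 34 kb below the position and carried Olig2. Its control peak, chr15:61780484-61782726, had a score of 767.23 (90.46 percentile), the highest H3K27ac score of the locus, and its Olig2cKO partner, chr15:61780714-61783045, had 504.75 (84.95 percentile). The Olig2 peak there, chr15:61781165-61782356, had a score of 112.32. A region at the upper edge, 81.6 kb above the position and without Olig2, went the other way, with H3K27ac scores of 112.91 (33.18 percentile) in control and 162.5 (48.74 percentile) in Olig2cKO tumours. The other 3 regions were each listed in 1 genotype. In control tumours alone, chr15:61805400-61806046 had a score of 79.91. In Olig2cKO tumours alone, chr15:61833487-61834649 had a score of 102.53 and chr15:61886878-61890538 had 94.81. None of these 3 carried Olig2. In their score deciles, 36.8% of control peaks and 42.4% and 51.9% of Olig2cKO peaks had no partner. The Olig2 peak farthest from Myc, chr15:61751494-61752060 with a score of 97.15, lay on no histone peak, and the nearest was 28.424 kb away.

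Across the loci, few histone peaks were listed in 1 genotype alone, and none of those stood above the 54.72 percentile of its list by score. For H3K27ac, 1 of 12 control peaks had no Olig2cKO partner (8.33%, 0.211 to 38.5), where 17.9% of the whole control list had none. Of 15 Olig2cKO H3K27ac peaks, 3 had no control partner (20.0%, 4.33 to 48.1), against 30.9% of the whole list. For H3K4me3 the counts were 2 of 13 control peaks (15.4%, 1.92 to 45.4), against 8.13% of the list, and 0 of 9 Olig2cKO peaks (0%, upper bound 33.6), against 21.4%. With windows 50 kb wider on each side the last count was 3 of 17 (17.6%), all 3 at Myc. All 4 whole-list shares lie inside the intervals of the loci, so no departure from the lists was detectable with so few peaks.

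**Figure D3:**
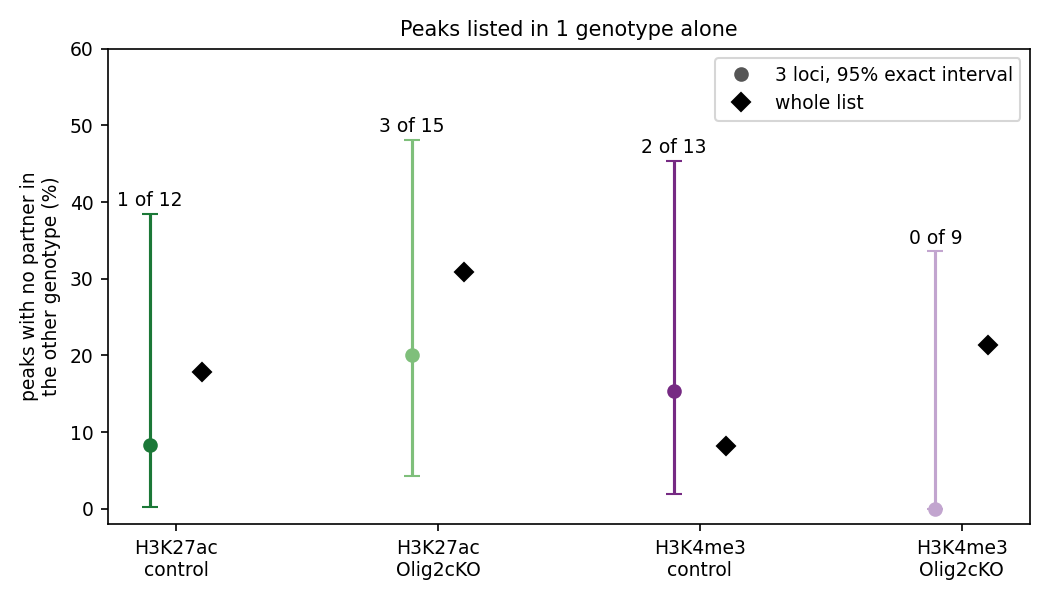
Share of histone peaks with no overlapping peak in the other genotype, in percent, for the 3 loci (circles, with 95% exact binomial intervals and counts) and for each whole list (diamonds). Each diamond falls within the interval of its circle.

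Pairs in which each peak had the other as its 1 partner numbered 10 for H3K27ac and 8 for H3K4me3. The region nearest the Cdkn1a position is left out, because the peaks there were split in a list of each mark. Its H3K4me3 percentile was 93.23 in Olig2cKO tumours, against 69.36, 78.28 and 26.66 in control tumours. Its H3K27ac percentiles were 62.52 and 85.69 in Olig2cKO tumours, against 90.01 in control tumours. For both marks these values set a whole peak against pieces, so they are not like for like. For H3K27ac, 7 of 10 stood at a lower score percentile in the Olig2cKO list than in the control list, where 38.4% of all 43120 such pairs did. For H3K4me3, 6 of 8 did, where 35.5% of all 35250 pairs did. By locus the H3K27ac counts were 2 of 4 at Cdkn1a, 3 of 3 at Ccnd1 and 2 of 3 at Myc, and the H3K4me3 counts were 1 of 2, 3 of 4 and 2 of 2. These counts take no account of size. At Ccnd1 the H3K27ac differences in percentile (Olig2cKO minus control) were -27.46, -0.86 and -1.45. The H3K4me3 differences there were -2.56, -4.39, -2.53 and 1.41. The shares over all pairs were not matched for rank in the control list, and a pair that starts high has little room to rise. Neighbouring peaks share a locus, and a percentile also moves with the other peaks of a list, so the difference from these shares was not tested. In width, 6 of 10 H3K27ac pairs were wider in Olig2cKO tumours, where 57.0% of all pairs were, and 5 of 8 H3K4me3 pairs, where 76.7% were.

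**Figure D4:**
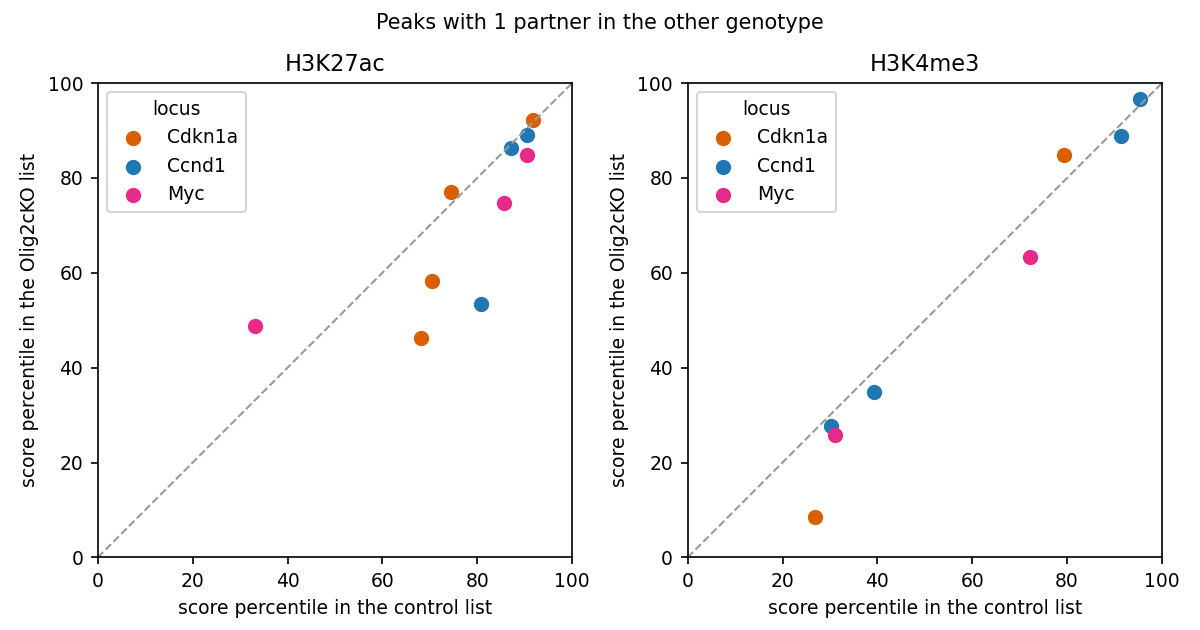
Score percentile of each peak with exactly 1 partner, in the control list (x axis) and in the Olig2cKO list (y axis), for H3K27ac (left) and H3K4me3 (right), coloured by locus; the dashed line marks equal percentiles. Of the points, 7 of 10 for H3K27ac and 6 of 8 for H3K4me3 lie below the line. The region nearest the Cdkn1a position, where peaks were split in a list of each mark, is not shown.

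The share of Olig2 peaks on each mark was not detectably different at the loci, since every whole-list share lies inside the interval of the loci. Of the 12, 7 overlapped control H3K27ac (58.3%, 27.7 to 84.8) and 7 overlapped control H3K4me3 (58.3%, 27.7 to 84.8), where 68.9% and 55.6% of all 39201 Olig2 peaks did. In Olig2cKO tumours, 7 sites carried H3K27ac and 5 carried H3K4me3 (41.7%, 15.2 to 72.3), where 70.2% and 58.1% of all did. H3K27ac was listed at the same 7 Olig2 sites in both genotypes, and the 2 Olig2 sites that carried H3K4me3 in control tumours alone were those at Cdkn1a with the weak H3K4me3 peaks described above. All 4 histone lists had a peak at 3 Olig2 sites, 1 at each locus (25.0%, 5.49 to 57.2), where 42.5% of all Olig2 peaks had. No histone list had a peak at 3, again 1 at each locus (25.0%, 5.49 to 57.2), where 17.1% of all had none. None of the 12 was in the highest score decile of the Olig2 list.

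Seen from the histone lists, 7 of 12 control and 7 of 15 Olig2cKO H3K27ac peaks carried Olig2, where 49.5% and 42.5% of the whole lists did. For H3K4me3, 8 of 13 control and 5 of 9 Olig2cKO peaks carried it, where 55.7% and 50.3% did. The intervals of the loci, from 21.2 to 86.3% for the last of these, include the whole-list share in each of the 4 lists.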

How the data were processed

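ChIP-seq peak lists of 5 libraries were analysed, each with 1 library per group, 25 days after virus injection. The genotype labels are not reported here in full. CASAVA, Bowtie2 and MACS, and the build mm9, are named per the submitters' processing notes, with no versions or settings. Whether an input library was used, and the read depth, are not given in the sources used here. The score of each peak is as deposited by the authors. Its lowest value, 50.0 to 50.02 in the 5 lists, equals -10 log10 of a p-value of 1e-05. How MACS reached it was not checked. Widths and scores can move with depth.

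Starts were converted to count from 1. A partner is a peak of the other list that overlaps by at least 1 bp. Overlaps were computed in Python 3.11.15 (numpy 2.4.6, pandas 2.3.3), gave the same counts as bedtools 2.31.1 in all 8 comparisons checked, and were tested on simulated data. Exact (Clopper-Pearson) 95% intervals came from scipy 1.17.1, and figures from matplotlib 3.10.9. Score deciles split each list into 10 equal classes. Promoter sequences are RefSeq's for GRCm38.p6.

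The genes, windows and lists were chosen with earlier results of these data known. Named peaks were, in each window, the highest of each list, the nearest to the gene position, every Olig2 peak with no histone peak and every peak without a partner. Others were named after their values were seen. Other cell cycle genes were to be counted only with an mm9 annotation, and are not reported here. As alternatives, lists were reduced to their upper 50% by score (in both genotypes, or in 1 and left whole in the other), the longer list of a mark was shortened to match, partners had to share 50% of the shorter peak or could lie up to 1 kb apart, and windows were 50 kb wider on each side.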

Additional observations from a re-analysis of the deposited data

How the results depend on the processing

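No paired analysis was possible because each group had 1 library. Of 64 values over the 3 loci under the alternatives, 54 stayed within 1.5 times the count reported or inside the interval reported. With windows 50 kb wider on each side, the peak counts were 21 for Olig2, 20 and 27 for control and Olig2cKO H3K27ac, and 21 and 17 for control and Olig2cKO H3K4me3. These rises follow from the longer windows. With the upper 50% of each list by score, the H3K4me3 counts were 6 in control and 5 in Olig2cKO tumours, and the share of control H3K4me3 peaks without a partner was 0%. It was also 0% when the upper 50% was set against the whole other list, as was the share of control H3K27ac peaks without a partner (0%). All control peaks without a partner at these loci were thus in the lower 50% of their list. Some values inside the intervals also moved by over 1.5 times. With the wider windows, 3 of 17 Olig2cKO H3K4me3 peaks (17.6%) had no control partner, all 3 among the 5 at Myc, and control H3K27ac peaks without a partner fell to 5.0%. With the upper 50% of each list, Olig2 peaks on control H3K4me3 came to 33.3% over the loci and 25.0% at Cdkn1a, and Olig2cKO H3K27ac peaks without a partner came to 9.09%, also against the whole other list. With equal lengths, 3 of 13 control H3K4me3 peaks (23.1%) had no partner, and 8 Olig2cKO H3K4me3 peaks were left. An overlap of 50% and partners up to 1 kb apart left the shares over the 3 loci as they were. Depth is unknown for every library, which limits any statement on a peak that is not listed.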

Other observations

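Olig2 peaks of 3 kb or more with no histone peak in any list were also found away from the cell cycle loci. After the Ccnd1 peak, the farthest from any histone peak were chr3:88023648-88026866 (score 263.36, 14.23 kb away), chr1:42750208-42753512 (196.85, 12.415 kb), chr2:165708382-165713199 (112.23, 11.753 kb) and chr11:69221943-69226009 (62.03, 10.24 kb). They were picked after their values had been seen, and no gene was assigned to them. All 4 were between 3219 and 4818 bp wide.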
